A study of Saccharomyces cerevisiae with 24 samples.

Results

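The loss of OPI3 was followed here in budding yeast whose stress sensor Ire1 lacked its lumenal domain. The comparison set 3 arrays labelled Δopi3 and ire1ΔLD, grown without choline, against 3 arrays of untreated cells with the same Ire1 form. These 6 arrays were chosen by their titles, out of 24 one-colour Agilent arrays in 8 groups of 3. All cells were W303 of mating type a, lacked their own IRE1 gene, and carried in its place Ire1 (called IRE1 cells) or ire1ΔLD (called ΔLD cells). The other groups that enter below were untreated and Δopi3 IRE1 cells, ΔLD cells kept for 1 h in 2 mM dithiothreitol (DTT), and Δopi3 ΔLD cells grown overnight with 1 mM choline. Cultures were grown at 30 °C in synthetic medium and collected below an OD600 of 0.5. The labels do not say how the Ire1 forms were expressed, nor whether the 3 arrays of a group came from separate cultures. The p-values therefore measure only the spread between these arrays, which may be technical.

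Ire1 spans the membrane of the endoplasmic reticulum (ER). Its lumenal domain detects unfolded proteins, and its cytosolic part splices the HAC1 message, whose product switches on genes for folding, degradation and lipid synthesis. Opi3 carries out the later methylation steps that turn phosphatidylethanolamine into phosphatidylcholine, the main phospholipid of most yeast membranes, while choline feeds a separate (Kennedy) route to the same lipid. Cells without these steps place the ER membrane under lipid bilayer stress, and DTT, which breaks disulfide bonds, places the ER lumen under protein-folding stress.

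All levels are log2 processed signals minus the 75th percentile of the array, averaged by probe (9 or 10 spots each) and then by systematic name. A change is the difference of 2 group means on that scale, with its standard error (SE) from a limma model of all 24 arrays. A gene was called at a Benjamini-Hochberg adjusted p under 0.05 over 6209 genes. The 75th percentile lay between 6951 and 15890 over the 24 arrays, and each array had 90.6% to 95.8% of its spots well above background. Replicate numbers were slides: each of 3 slides carried 1 array of every group, and a group sat at the same place on all 3, so place and group cannot be told apart. In bulk RNA, fewer cells expressing a gene and less of its RNA per cell cannot be told apart either.

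OPI3 (YJR073C, chromosome X) itself was read first, because its signal checks the label. On the untreated ΔLD arrays it was 3.94, 3.83 and 3.85 in replicates 1, 2 and 3. On the ΔLD arrays labelled Δopi3 it was −9.81, −2.15 and 1.78. The groups did not overlap, but the labelled arrays ran from background to a clear signal. On replicate 1 the probe was not well above background, which allows at most 0.0347% of the untreated ΔLD level. Replicate 2 held 1.54% of that level and replicate 3 held 23.5%. The ΔLD arrays labelled Δopi3 with choline read −9.72, −9.73 and −9.12, none of them above background. The Δopi3 IRE1 arrays went the same way by slide, with −9.65 (not above background), −3.17 and 2.20. OPI3 was thus above background on 5 of the 12 arrays that carry the Δopi3 label, and the third replicate of the present comparison goes against it. The fitted change was −7.26 (SE 2.73, adjusted p = 0.03). It was no longer called without any 1 of the 3 untreated ΔLD arrays (adjusted p 0.0594 to 0.0633), without Δopi3 replicate 1 (0.216), or without slide 1 or slide 2 (0.237 and 0.169). All groups below are therefore named by label. For the Δopi3 effect in ΔLD cells the main counts are given without the arrays in doubt as well.

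**Figure D1:**
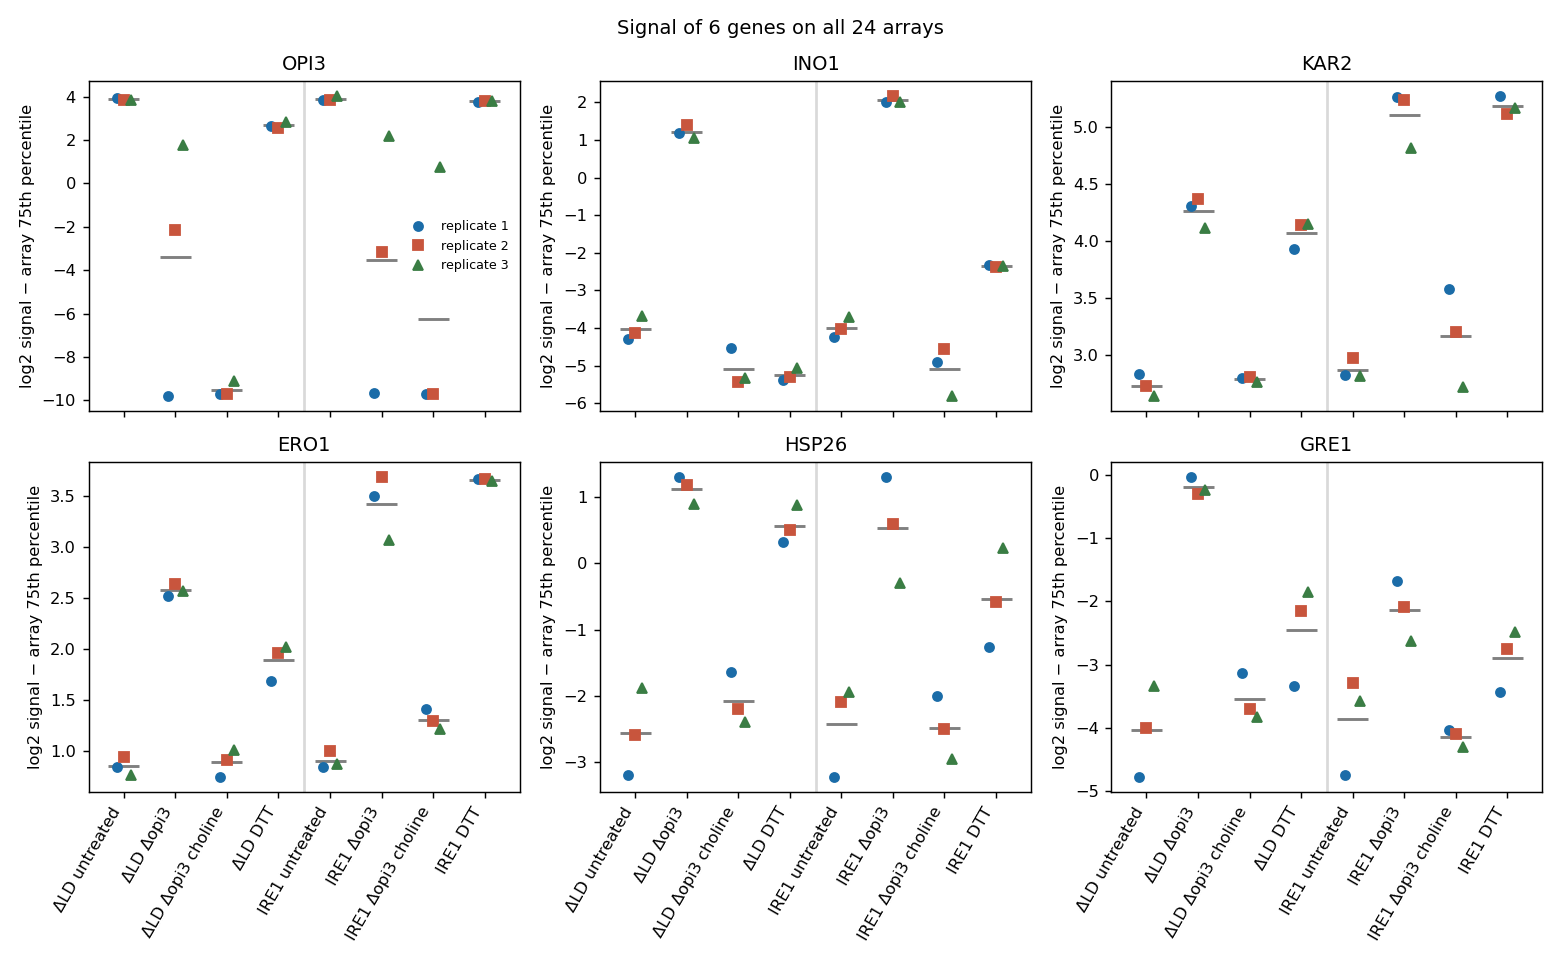
Log2 signal minus the array's 75th percentile of OPI3, INO1, KAR2, ERO1, HSP26 and GRE1 on all 24 arrays, by group. Circles, squares and triangles are replicates 1, 2 and 3 and grey bars are group means. OPI3 is at 3.83 to 3.94 on the untreated ΔLD arrays and at −9.81, −2.15 and 1.78 on the Δopi3 ΔLD arrays.

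Of the 6209 genes, 3507 (56.5%) were called between Δopi3 and untreated ΔLD cells. Of these, 1811 (29.2%) were higher and 1696 (27.3%) lower in Δopi3 cells. The large changes leaned upward: 443 genes (7.13%) were called and at least 2-fold higher, against 55 (0.886%) at least 2-fold lower, OPI3 among them. The lean was smaller after quantile normalization, with 330 higher and 93 lower. For 4123 genes (66.4%) the lowest array of one group was above the highest of the other. Leaving out Δopi3 replicate 3, the array with the most OPI3, kept 3302 of the 3507 calls and all 498 of the 2-fold calls. Leaving out all 5 labelled arrays with OPI3 above background, which leaves Δopi3 replicate 1 alone in this group, kept 3001 and 490, and no sign changed. The lone array is assumed there to vary like the other groups. Without slide 2, 1850 of the calls and 457 of the 2-fold calls remained. The share of calls that were higher was 51.6%. It was 41.2% after quantile normalization and 72.8% after scaling to the E1A spike-in probes, under which 998 of the calls, including all 498 of the 2-fold ones, remained. That scaling moved the median change of all genes by −0.02, from 0.002 to −0.018, and turned the sign of no called gene. Changes in this comparison thus nearly kept their size with it. The spike-in level minus the 75th percentile was −0.057, 0.04 and −0.321 on the untreated arrays and 0.199, −0.301 and −0.178 on the Δopi3 arrays.

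INO1 (YJL153C), which makes inositol phosphate and is the textbook target of the Ino2-Ino4 activator, rose most of all the genes measured. Its level was −4.28, −4.13 and −3.69 in the untreated arrays and 1.19, 1.39 and 1.06 in the Δopi3 arrays, so the groups were far apart and the 3 labelled arrays were alike, whatever their OPI3 signal. The rise was 5.24 (SE 0.25, adjusted p = 1.38e-11), or 37.9-fold. With choline, the mean was lower than in untreated cells by 1.06, which was not called (adjusted p = 0.0737). With DTT, INO1 changed in the other direction, by −1.22 against untreated cells, and Δopi3 cells stood 6.46 above DTT-treated cells (adjusted p = 8.72e-13).

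From here on, list members called for this effect in the main fit stand against 29.2% of all genes higher and 27.3% lower. Counts in other fits stand against fewer calls. With E1A scaling 1002 of the 6209 genes were called, 729 of them higher. Without slide 2, 1855 were called, 1132 of them higher. The other inositol genes changed by less. Of the 10 members of this list, 4 rose and 2 fell, with a median change of −0.04 against 0.00 over all genes. ITR1, the main inositol transporter, was at 3.42, 3.28 and 3.31 untreated and at 4.002, 3.79 and 3.81 in Δopi3 cells, a rise of 0.53 (SE 0.09, adjusted p = 8.26e-05). INO4, a subunit of the activator, rose by 0.53 and INM2, an inositol monophosphatase, by 0.31, the latter not called without Δopi3 replicate 1 (adjusted p = 0.062). PIS1, the phosphatidylinositol synthase, fell by 0.28 (adjusted p 0.0776 with quantile normalization and 0.0505 without slide 1), and SCS2, the ER protein that anchors the repressor Opi1, fell by 0.40. INO2 changed by −0.07 and ITR2 by −0.19, neither called, although INO2 was called lower with quantile normalization (adjusted p = 0.00368). INM1 changed by −0.34 and was called only in some settings, among them the slide block (adjusted p 0.0621, and 0.0137 with the block). OPI1, the repressor, had the levels 0.69, 0.71 and 0.67 untreated and 0.77, 0.66 and 0.63 in Δopi3 cells. These overlapped, and the difference was under 0.01 in size (adjusted p = 0.976). With E1A scaling only INO1 of this list was called.

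The genes on the route through phosphatidylserine and phosphatidylethanolamine, which supply the substrate of Opi3, showed 1 call among 5 members apart from OPI3, with a median of 0.08. PSD2, the phosphatidylserine decarboxylase outside mitochondria, rose by 0.28 (adjusted p 0.0116, but 0.0958 without Δopi3 replicate 1, 0.0895 without slide 2 and 0.542 with E1A scaling). CHO2, which adds the first methyl group, was at 2.04, 1.94 and 1.86 untreated and 2.15, 2.11 and 2.12 in Δopi3 cells. Its arrays did not overlap, but the difference of 0.18 was not called (adjusted p 0.114, and 0.00944 with quantile normalization). CHO1, the phosphatidylserine synthase, differed by 0.08 (adjusted p 0.429, and 0.00352 with quantile normalization), PSD1 by −0.07 and CDS1 by 0.03. CHO1 and PSD1 were lower than in untreated cells when choline was added, by 0.75 and 0.63 (adjusted p 5.51e-05 and 0.000708).

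The Kennedy pathway, through which choline and ethanolamine enter phospholipids, had 4 falls among 7 members, against 27.3% of all genes lower, 3 members not called, and a median of −0.30. HNM1, the choline transporter, was at 2.13, 1.98 and 1.95 untreated and at 1.54, 1.40 and 1.73 in Δopi3 cells. The lowest untreated array lay above the highest Δopi3 array, and the fall was 0.47 (SE 0.14, adjusted p = 0.00739). It was not called without slide 1 or slide 2 (0.0554 and 0.15). PCT1 and ECT1, which couple choline phosphate and ethanolamine phosphate to cytidine nucleotide, fell by 0.37 and 0.34. CPT1, the cholinephosphotransferase, fell by 0.30. It lost its call without untreated replicate 1 (adjusted p = 0.0867), without Δopi3 replicate 1 (0.121), and without slide 1 or slide 2 (0.267 and 0.0655). The kinases CKI1 and EKI1 and the transferase EPT1 changed by 0.21, under 0.01 in size, and 0.02, with adjusted p of 0.137, 0.986 and 0.922. CKI1 was called without slide 3 (0.0298). With E1A scaling the 4 genes that fell lost their calls (adjusted p 0.197 to 0.453), at a list median of −0.32.

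Among the other lipid genes, peroxisomal fatty acid oxidation rose as a group, with 14 of 16 members higher, 1 lower (PXA1, by 0.20) and a median of 0.79. POT1, the thiolase that completes the cycle, was at −6.86, −6.70 and −6.56 untreated and at −2.73, −2.95 and −3.28 in Δopi3 cells. All 3 Δopi3 arrays were well clear of the untreated ones, and the rise was 3.72 (SE 0.35, adjusted p = 7.36e-08). POX1, the oxidase of the first step, rose by 2.82, with only 1 of its 3 untreated arrays above background. ADR1, an activator of genes for oleate and ethanol use, rose by 1.63. Fatty acid synthesis and activation gave 3 rises and 5 falls among 14, and 2 falls were over 2-fold. These were ELO1, a medium-chain elongase, by 1.09, and FAA3, an acyl-CoA synthetase, by 1.02. With E1A scaling 9 of the 14 rises in fatty acid oxidation kept their calls, and in synthesis and activation 3 falls did and the 3 rises did not. FAA4, another acyl-CoA synthetase, fell by 0.71 (not called without slide 2, adjusted p = 0.0966).

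Sterol synthesis had 10 falls and 1 rise among 25 genes, with a median of −0.15, against 27.3% of all genes lower. With E1A scaling all 10 falls lost their calls and the rise kept its own. Quantile normalization gave 5 falls and 5 rises and a median of 0.04. UPC2, a sterol-responsive activator, was the member that rose, by 0.89. HMG1, a rate-limiting reductase of the pathway, fell by 0.47 and ERG24, a sterol reductase, by 0.45. Sphingolipid genes split 6 to 7 among 29, and 2 to 2 with E1A scaling. ORM1, a brake on the first enzyme, and LAG1, a ceramide synthase subunit, each fell by 0.83, and LCB5, a sphingoid base kinase, rose by 0.79. Of 26 genes of phosphatidate, storage lipid and phospholipases, 8 rose and 4 fell, close to the 29.2% of all genes higher, and with E1A scaling 1 was higher and 1 lower. LPP1, a lipid phosphatase, rose by 0.77 and YEH1, a steryl ester hydrolase, by 0.68 (adjusted p 0.0552 with E1A scaling). PLB2, a phospholipase B, fell by 0.96 (adjusted p 0.0752 without slide 2).

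**Figure D2:**
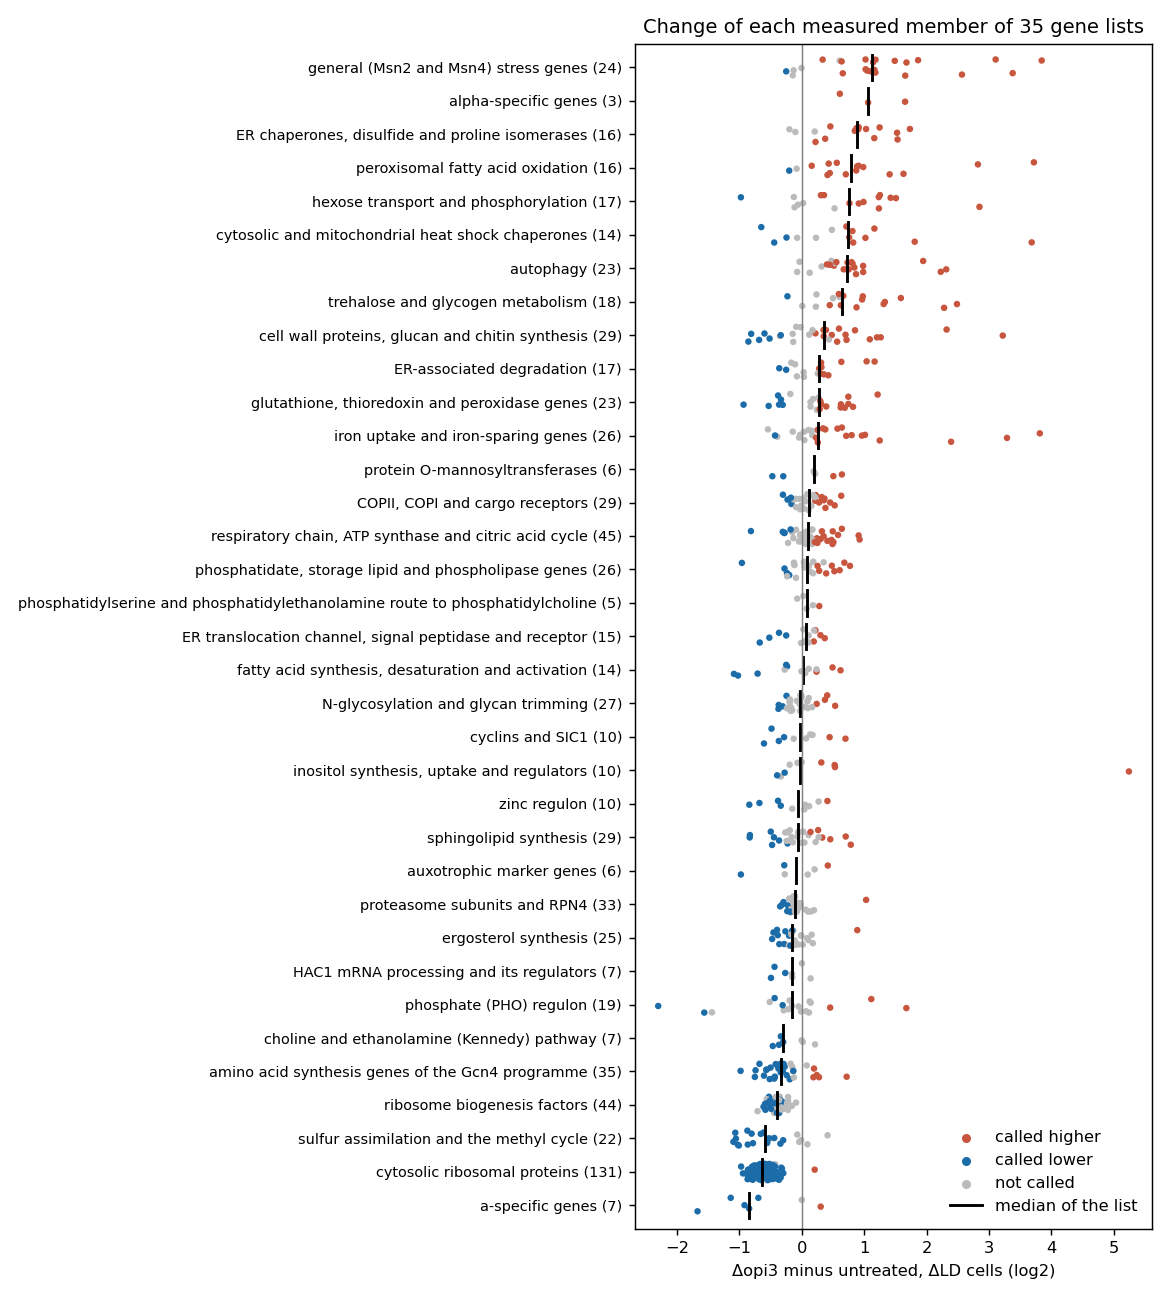
Log2 change between Δopi3 and untreated ΔLD cells for each measured member of 35 gene lists, 1 dot per gene. Red dots were called higher, blue dots called lower and grey dots not called. Black bars are list medians and the grey line is the median over all genes, 0.002. The general stress list has the highest median (1.12) and the a-specific genes the lowest (−0.84).

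ER folding genes rose without the lumenal domain. Of the 16 ER chaperones, disulfide isomerases and proline isomerases, 13 were called higher, 6 of them by at least 2-fold, 3 were not called, and the median was 0.89. KAR2 (YJL034W), the ER Hsp70 chaperone, was at 2.83, 2.73 and 2.64 untreated and at 4.31, 4.36 and 4.11 in Δopi3 cells, a rise of 1.53 (SE 0.15, adjusted p = 1.3e-07). ERO1 (YML130C), the oxidase that feeds disulfide formation, was at 0.84, 0.94 and 0.76 against 2.52, 2.64 and 2.57, a rise of 1.73 (SE 0.12, adjusted p = 9.64e-10). SIL1, a nucleotide exchange factor of Kar2, rose from −1.04, −1.09 and −1.20 to 0.41, 0.51 and 0.36, or by 1.53. In each of these genes the 3 Δopi3 arrays were tight and lay above every untreated array. PDI1, the protein disulfide isomerase, rose by 0.88. JEM1, a J-protein partner of Kar2, rose by 1.25, MPD1, a disulfide isomerase, by 1.16, and LHS1, an Hsp70 of the ER, by 1.03. EUG1, FPR2, ERJ5, SCJ1, ERV2 and EPS1 rose by 0.22 to 0.91. MPD2, CPR5 and CNE1 were not called, at 0.21, −0.10 and −0.20. With E1A scaling 10 of the 16 were called higher, and with Δopi3 replicate 1 alone 12 were.

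HAC1 (YFL031W), the message that Ire1 splices, was not called. It was at 1.63, 1.39 and 0.95 untreated and at 1.48, 1.48 and 1.44 in Δopi3 cells, so that the untreated arrays spread over both sides of the Δopi3 arrays. The difference was 0.14 (SE 0.12, adjusted p = 0.337). It became called without untreated replicate 1 (0.0394) and turned to −0.05 without untreated replicate 3. Which form of the message the probe reads was not examined. Of the 7 genes of HAC1 processing and its regulators, 3 fell and 4 were not called. Those that fell were TRL1, the ligase that joins the spliced message, by 0.49 (adjusted p 0.0818 without slide 2), PTC2, a phosphatase acting on Ire1, by 0.44, and GCN5, an acetyltransferase, by 0.27 (adjusted p 0.0563 without the 5 arrays). With E1A scaling the 3 lost their calls (adjusted p 0.154 to 0.492). IRE1 itself, here the ire1ΔLD message, was at −0.20, −0.17 and 0.10 untreated and at 0.64, 0.69 and 0.66 in Δopi3 cells. It rose by 0.75 (adjusted p 0.015), and was not called without slide 1 (0.0779), without slide 2 (0.155) or without the 5 arrays (0.0699).

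ER-associated degradation gave 9 rises and 2 falls among 17 genes, with a median of 0.28. DER1, a channel component, was at −3.04, −3.13 and −3.08 untreated and at −1.93, −1.78 and −2.03 in Δopi3 cells, a rise of 1.17. DFM1, its relative, rose by 1.04 and HRD1, the ubiquitin ligase of that channel, by 0.63. With E1A scaling 2 of the 17 were called, and HRD1 was not (adjusted p = 0.0765). The other secretory lists had medians of 0.06 for translocation, −0.03 for N-glycosylation, 0.20 for O-mannosylation and 0.11 for vesicle traffic, against 0.002 over all genes. Translocation gave 4 rises and 4 falls among 15, N-glycosylation 4 and 4 among 27, O-mannosylation 2 and 2 among 6, and vesicle traffic between ER and Golgi 10 and 4 among 29. SSH1, a translocation channel subunit, fell by 0.67, DPM1, which makes the mannose donor of the ER, rose by 0.54, and PMT4, an O-mannosyltransferase, fell by 0.47. ERV29, a cargo receptor, rose by 0.63 and SEC24, a COPII coat subunit, by 0.53. With E1A scaling only SSH1 was called among the genes of these lists.

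General stress genes, targets of Msn2 and Msn4, had the highest list median, 1.12, with 19 of 24 called higher, 16 of them by at least 2-fold, and MSN2 itself called lower by 0.25. HSP26, a small heat shock protein, was at −3.19, −2.60 and −1.88 untreated and at 1.31, 1.18 and 0.90 in Δopi3 cells, a rise of 3.69 (SE 0.43, adjusted p = 1.1e-06). GRE1, a hydrophilin, was at −4.77, −4.005 and −3.33 against −0.03, −0.31 and −0.24, a rise of 3.85 (SE 0.41). DDR2, a stress protein of unknown action, was at −3.38, −2.79 and −2.29 against 0.56, 0.74 and 0.39, a rise of 3.38. In all 3 genes the untreated array of slide 3 was the highest and that of slide 1 the lowest, while the Δopi3 arrays lay closer together, so that part of the smaller change on slide 3 lay in its untreated array. SIP18 rose by 3.11, with 2 of 3 untreated arrays above background. Without slide 2, 9 of the 24 genes were called higher and the median was 1.01. With E1A scaling 16 were.

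Cytosolic and mitochondrial chaperones were mixed, with 8 rises and 3 falls among 14. SSA3, a stress-induced Hsp70, rose by 1.81 and HSP78, a mitochondrial disaggregase, by 1.16 (adjusted p 0.0664 without slide 2), while SSA2 and HSC82, constitutive forms, fell by 0.65 and 0.44. These are near-identical to SSA1 and HSP82, so a probe may read both. Without slide 2 the list kept 3 of the rises and 1 fall, and with E1A scaling 7 of the rises. Of 18 trehalose and glycogen genes 12 rose and 1 fell, among them GAC1, a regulatory subunit of glycogen synthase phosphatase, by 2.49, GPH1, the phosphorylase, by 2.28, and GLC3, the branching enzyme, by 1.59 (adjusted p 0.11 without slide 2). Without slide 2 that list kept 4 of the rises, and with E1A scaling 8. Of 23 autophagy genes 17 rose and 6 were not called, with a median of 0.72. Of these rises, 11 remained without slide 2 and 12 with E1A scaling. ATG39, a receptor for ER and nuclear envelope, rose by 2.31, ATG17, a scaffold, by 2.23, and ATG8, the conjugated membrane protein, by 1.95. Proteasome genes did not rise with them. Of 33 only RPN4, their activator, was higher (1.03), and 6 subunits were lower, by no more than 0.35. The 6 lost their calls with E1A scaling.

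Of 17 hexose transport and phosphorylation genes, 11 rose and 1, HXT1, fell by 0.98. HXT5, a transporter of slow-growing cells, rose by 2.85, HXT10 by 1.51 and MTH1, a repressor of HXT genes, by 1.42. Without slide 2, 5 of them were called higher, and with E1A scaling 8. Of 26 iron genes 15 rose and 1 fell, and 8 of the rises remained with E1A scaling. TIS11, an mRNA-binding protein of iron deficiency, was at −6.11, −6.05 and −5.80 untreated and at −2.53, −2.67 and −2.90 in Δopi3 cells, a rise of 3.29. FIT2, a cell wall protein of iron uptake, rose by 2.39 (SE 0.09). LSO1 was at least 3.95-fold higher, as no untreated array was above background. Its adjusted p of 3.19e-09 belongs to the fitted change, which rests on untreated readings not above background, and not to that bound. An at-least fold sets the Δopi3 mean against the lowest signal well above background on each untreated array. FRE1, a ferric reductase, was the fall (0.43, adjusted p 0.0496), and it lost the call in 13 of its alternatives.

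Sulfur assimilation and the methyl cycle, which supplies the methyl groups that Cho2 and Opi3 use, fell. Of 22 genes, 16 were lower, 5 of them by at least 2-fold, 6 were not called, and the median was −0.58. MET6, the methionine synthase, was at 3.49, 3.35 and 3.34 untreated and at 2.04, 2.43 and 2.42 in Δopi3 cells, a change of −1.096 (SE 0.13, adjusted p = 9.11e-07). MET14, the adenylylsulfate kinase, fell by 1.06 and MMP1, an S-methylmethionine permease, by 1.07. The 2 groups did not overlap in any of the 3 genes. With E1A scaling 10 of the 22 were called lower. Amino acid genes of the Gcn4 programme fell in 25 of 35 cases and rose in 5, with a median of −0.34. LYS20 fell by 0.98, LYS9 by 0.75 and LEU9 by 0.74, but with E1A scaling 4 of the 35 were called lower and 1 higher.

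Ribosomal protein genes fell almost as a block, 129 of 131 lower and 1 higher, against 27.3% of all genes lower. Their changes were small, with a median of −0.63. RPL9A, of the large subunit, was at 4.73, 4.78 and 4.64 untreated and at 3.65, 3.65 and 3.94 in Δopi3 cells, a fall of 0.97. RPL19B fell by 0.94 and RPS11B by 0.87. Many of these genes come as near-identical pairs, so a probe may read both copies. Of 44 ribosome biogenesis factors 23 were lower and 21 not called. NOP1, a nucleolar methyltransferase, fell by 0.61, MAK16 by 0.59 and RRP9 by 0.58. With E1A scaling 66 ribosomal protein genes were called lower, while all 23 biogenesis factors lost their calls, NOP1, MAK16 and RRP9 at adjusted p 0.0692 to 0.0799. Without slide 1 or slide 2 the biogenesis factors had 3 and 1 calls, and with Δopi3 replicate 1 alone 37.

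Phosphate genes went both ways, 3 up and 4 down among 19. PHO5, an acid phosphatase, was at −3.64, −2.68 and −2.17 untreated and −1.50, −0.68 and −1.28 in Δopi3 cells, a rise of 1.68 (adjusted p 0.00164), but 0.0669 without slide 2 and 0.0619 without the 5 arrays. SPL2, a regulator of phosphate transport, was at −5.05, −3.71 and −3.22 against −6.15, −6.51 and −6.22, a fall of 2.30 (adjusted p 0.00298), but 0.118 and 0.0633. Zinc genes had 1 rise and 4 falls among 10, with ZRT2, a zinc transporter, down by 0.84 and ZRC1, a vacuolar carrier, by 0.68. Of 29 cell wall genes 15 rose and 6 fell. With E1A scaling 2 of the zinc falls, 8 of the wall rises and 3 of the wall falls remained. GSC2, a glucan synthase subunit, was at 0.15, 0.29 and 0.60 untreated and at 3.73, 3.64 and 3.35 in Δopi3 cells, a rise of 3.22 (SE 0.19, adjusted p = 1.68e-10). PIR3, a wall glycoprotein, rose by 2.32 and CRH1, a transglycosylase, by 1.26. Redox genes gave 11 rises and 6 falls among 23, of which 4 and 1 remained with E1A scaling. PRX1, a mitochondrial peroxiredoxin, rose by 1.22, TRX3, a mitochondrial thioredoxin, by 0.82, and GPX2, a peroxidase, fell by 0.93. Of the cyclins CLN2 rose by 0.70, and CLB2 and CLB6 fell by 0.61 and 0.48 (with E1A scaling adjusted p 0.0692 and 0.164, and CLB6 0.0745 without the 5 arrays).

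Respiratory genes gave 15 rises and 5 falls among 45, with a median of 0.10, a share of rises near the 29.2% over all genes. The citric acid cycle enzymes IDH1 and LSC2 rose by 0.93 and 0.91. All 4 SDH genes, for the subunits of succinate dehydrogenase, rose, by 0.41 (SDH1) to 0.64 (SDH4). CYC1, cytochrome c, fell by 0.81. With E1A scaling 2 of the 45 were called higher and 1 lower.

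The mating type label was checked against its markers. All 7 a-specific genes measured were above background on all 6 arrays, and so were the alpha-specific genes STE3, MF(ALPHA)1 and SAG1, which are not defining genes of a cells. STE2, the receptor of a cells, was at 1.11, 1.20 and 1.04 untreated and at −0.11, 0.11 and 0.60 in Δopi3 cells, a fall of 0.92 (adjusted p = 0.000407). STE3, the receptor of alpha cells, was at −5.60, −5.51 and −5.20 against −4.47, −4.23 and −4.42, a rise of 1.06. In total 5 of the 7 a-specific genes fell (median −0.84) and the 3 alpha-specific genes rose (median 1.06). MFA2, an a-factor gene, fell by 1.67 and MF(ALPHA)1, an alpha-factor gene, rose by 1.66. AGA2 rose by 0.30, not called with quantile normalization or E1A scaling, and ASG7 was not called. With Δopi3 replicate 1 alone the 2 medians were −1.13 and 0.97. The part of these markers in the other results was not tested. Of the auxotrophic markers, URA3 was lower in Δopi3 cells by 0.98 (adjusted p 0.00159) and HIS3 higher by 0.42 (adjusted p 0.04). CAN1 was lower by 0.28, and LEU2, TRP1 and ADE2 were not called. Of the 6 genes nearest to OPI3, HAM1, LIA1 and MOG1 were lower by 0.34, 0.72 and 0.41, CDC11 was higher by 0.27, and NPA3 and HOC1 were not called. Medians by chromosome lay between −0.08 and 0.06.

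Genes ranked by size were called, listed in a reference gene table, above background on all 6 arrays and without overlap of the 2 groups. The 15 largest rises among them were INO1, GRE1, SHH3, POT1, HSP26, DDR2, TIS11, SPS100, GSC2, THI4, CIS1, YBR284W, RNP1, NCE103 and HXT5, from 5.24 to 2.85. SHH3, a relative of a succinate dehydrogenase subunit, was at −5.76, −5.59 and −5.30 untreated and at −1.50, −1.78 and −1.90 in Δopi3 cells, a rise of 3.83 (SE 0.22). THI4, of thiamine synthesis, rose by 3.01, SPS100, of the spore wall, by 3.25, and NCE103, the carbonic anhydrase, by 2.87. The 15 largest falls were YOL014W, SPL2, INA1, RPI1, NRT1, MFA2, YLR112W, HMS2, ARO9, PUT4, PHM6, ARO10, YER053C-A, OPT1 and MEP2, from −2.65 to −1.45. NRT1, which takes up nicotinamide riboside, fell by 2.04, and PUT4, a proline permease, by 1.58. OPT1, an oligopeptide transporter, and MEP2, an ammonium permease, fell by 1.49 and 1.45. ARO9 and ARO10, of aromatic amino acid breakdown, fell by 1.61 and 1.55. INA1 stood out in its pattern, with 2.05 on all 3 untreated arrays and −1.02, −0.66 and 0.95 in Δopi3 cells, a fall of 2.29 (adjusted p 0.00124, and 0.0671 without slide 2).

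**Figure D3:**
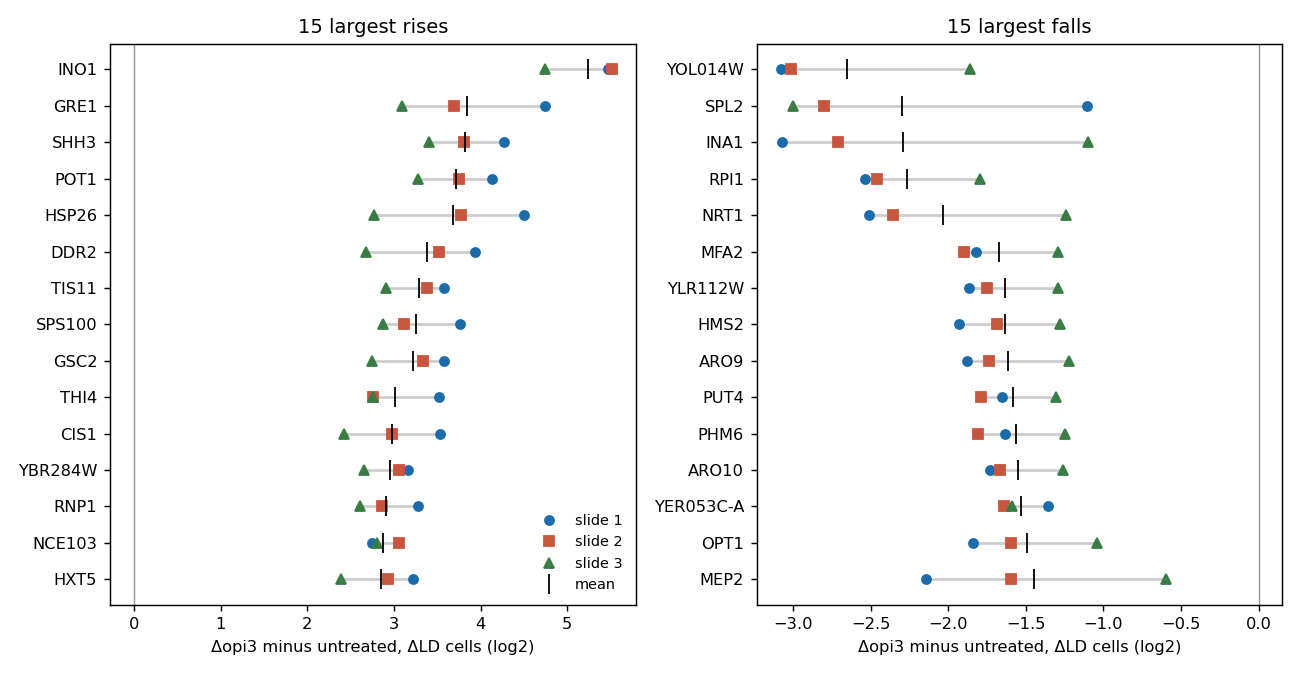
Log2 change of the 15 largest rises and 15 largest falls between Δopi3 and untreated ΔLD cells. Points are the changes within slides 1, 2 and 3 and the bar is the fitted mean. INO1 leads the rises with 5.24 and YOL014W the falls with −2.65. The 3 slides have the same sign in every gene shown, which was fixed in advance by choosing genes without overlap of the 2 groups.

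The size of the changes differed between slides, and so did the OPI3 signal. For 399 of the 443 genes at least 2-fold higher, the change within slide 3, where the labelled array held 23.5% of OPI3, was the smallest of the 3 slides. Their median change was 1.59 on slide 1, 1.52 on slide 2 and 1.12 on slide 3. The 54 genes at least 2-fold lower apart from OPI3 had medians of −1.43, −1.43 and −1.03. The same 443 genes had medians of 2.11, 1.74 and 1.28 in IRE1 cells, where the OPI3 signal ran the same way. Since the genes were picked from these arrays and each slide holds 1 array per group, slide and OPI3 signal cannot be told apart. The ER folding list was an exception in ΔLD cells, with medians of 0.78, 1.01 and 0.87, the smallest change being on slide 1 for 10 of 16 genes and on slide 3 for 6. General stress genes had medians of 1.22, 1.37 and 0.79, and ribosomal protein genes −0.70, −0.76 and −0.46. Without Δopi3 replicate 3 the list medians were 0.95 for ER folding, 1.19 for general stress and −0.69 for ribosomal proteins.

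**Figure D4:**
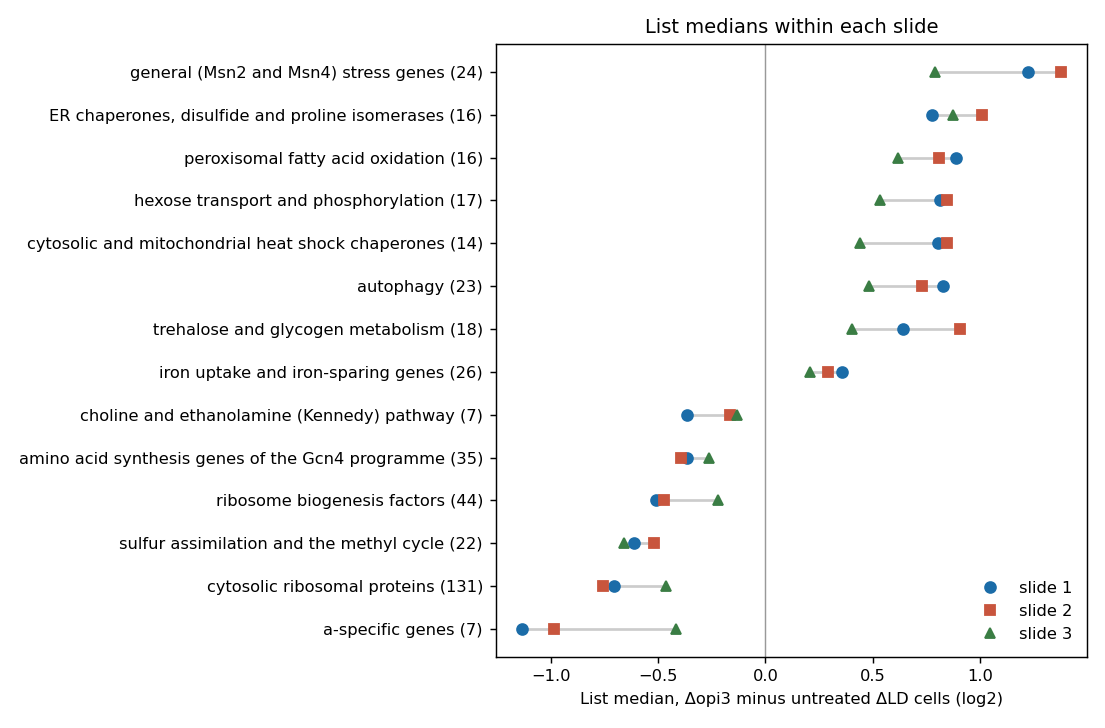
Median log2 change between Δopi3 and untreated ΔLD cells within each slide, for 14 gene lists with the number of genes in brackets. General stress genes run from 1.22 and 1.37 on slides 1 and 2 to 0.79 on slide 3, while ER folding genes have 0.78, 1.01 and 0.87.

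The 2 Ire1 forms differed in message level as well as in the lumenal domain. The IRE1 probe read −2.59, −2.28 and −1.715 in untreated IRE1 cells and −2.55, −2.54 and −1.81 in Δopi3 IRE1 cells. In ΔLD cells it read −0.20, −0.17 and 0.10 untreated and 0.64, 0.69 and 0.66 with Δopi3. Domain and message level therefore cannot be told apart. Whether the response differed between the forms was tested by the difference between the Δopi3 effect in ΔLD cells and that in IRE1 cells. This interaction was called for 255 of 6209 genes (4.11%), 111 with the higher effect in ΔLD cells (1.79%) and 144 with the lower (2.32%). At an unadjusted p under 0.05 there were 1042 (16.8%), and with slide as a block 458 were called. The count hung on single arrays and slides: it was 8 without slide 2, 111 without slide 1, 151 without Δopi3 IRE1 replicate 2 and 992 without Δopi3 IRE1 replicate 3. The last of these arrays held OPI3 at 31.3% of the untreated ΔLD level. Leaving out the 5 labelled arrays with OPI3 above background leaves replicate 1 alone in both Δopi3 groups compared. Some of the 255 differences lost their calls there, and none turned sign. Of the 255 calls, 43.5% were higher. With E1A scaling 62 were called, 22.6% of them higher, and the median of all genes moved by −0.25, from 0.03 to −0.22.

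ER folding genes rose in both cell types, and less so without the lumenal domain in 5 of 16 cases, against 2.32% of all genes. The list median was 0.89 in ΔLD cells and 1.39 in IRE1 cells, with a median difference of −0.51 against 0.03 over all genes. SIL1 rose by 1.53 against 2.65 (difference −1.11, adjusted p = 0.000148). ERO1 rose by 1.73 against 2.52 (−0.79, adjusted p = 0.00826) and PDI1 by 0.88 against 1.53 (−0.65, adjusted p = 0.0169). EUG1, a disulfide isomerase, and JEM1 had differences of −1.08 and −0.68. For KAR2 the rise was 1.53 against 2.23, and the difference of −0.70 was not called (adjusted p 0.073, and 0.0307 with the slide block). DER1 rose by 1.17 against 2.06 (−0.90, adjusted p = 0.00409). HAC1 differed too, by −0.66 (adjusted p = 0.0337), with 0.14 in ΔLD cells and 0.80 in IRE1 cells. Without slide 2 the adjusted p was 0.0567 for SIL1, 0.365 for ERO1, 0.255 for PDI1, 0.291 for DER1 and 0.784 for HAC1. Without slide 1 it was 0.185, 0.284, 0.17 and 0.436 for ERO1, PDI1, DER1 and HAC1, and with E1A scaling 0.187, 0.381, 0.11 and 0.333. In each of these settings the difference stayed below 0. Of the 5 list members called, 2 kept their calls with E1A scaling, and all 5 lost them without slide 2. The HAC1 difference also lost its call without any 1 of the 12 arrays in it except untreated ΔLD, untreated IRE1 and Δopi3 IRE1 replicate 3 (adjusted p up to 0.111). That of PDI1 did so without IRE1 replicate 1, Δopi3 IRE1 replicate 2 or Δopi3 ΔLD replicate 3 (up to 0.058).

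The gene with the largest difference was ULI1, which rose by 2.14 in ΔLD cells and by 5.74 in IRE1 cells (−3.60, adjusted p = 2.01e-10). It was at −6.00, −6.42 and −6.02 in untreated and at −3.94, −4.04 and −4.03 in Δopi3 ΔLD cells, the latter above all of the former. HUG1, an inhibitor of ribonucleotide reductase, and DIA3 also rose less without the lumenal domain, with differences of −1.78 and −1.49. PHO89, a phosphate transporter, YPL162C and FRE3, a ferric reductase, rose by 1.45 to 1.55 in IRE1 cells and by 0.04 to 0.13, not called, in ΔLD cells. In the other direction MTC7 was at −5.94, −6.18 and −6.22 untreated and at −3.09, −3.17 and −3.63 in Δopi3 ΔLD cells, a rise of 2.82 against 0.66 in IRE1 cells (2.16, adjusted p = 3.79e-05). GRE1 (2.11), SPS100 (1.55), FIT2 (1.501), RRT5 (1.49) and CIS1 (1.32) likewise rose more without the domain. FIT2, RRT5 and ULI1 kept their calls in all alternatives, whereas MTC7, HUG1, FRE3 and YPL162C lost theirs only without slide 2 (adjusted p 0.0516 to 0.0567). DIA3 also lost its call in a fit of the compared groups alone. GRE1, SPS100, CIS1 and PHO89 lost theirs without many of the single arrays (adjusted p up to 0.126) and without slide 2 (0.739, 0.722, 0.291 and 0.616).

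Respiratory genes were the list with the most calls toward ΔLD cells. Of 45, 10 were higher and 1 lower, against 1.79% and 2.32% of all genes. The median difference of the list was 0.30. All 11 lost their calls with E1A scaling, where the median difference was 0.05, and without slide 2, where it was 0.32. In IRE1 cells 24 of the 45 fell and 4 rose, where 35.1% of all genes were lower and 32.2% higher, against 5 and 15 in ΔLD cells. IDH1 rose by 0.93 in ΔLD cells and changed by 0.06 in IRE1 cells (0.87, adjusted p = 0.00106), while LSC2 rose less than in IRE1 cells (−0.80, adjusted p = 0.00523). Neither was called without slide 2 (adjusted p 0.0926 and 0.291) or with E1A scaling (0.955 and 0.205), and LSC2 was not called without slide 1 (0.129). For INO1 the rises were 5.24 and 6.05, and the difference of −0.80 was not called (adjusted p = 0.249).

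**Figure D5:**
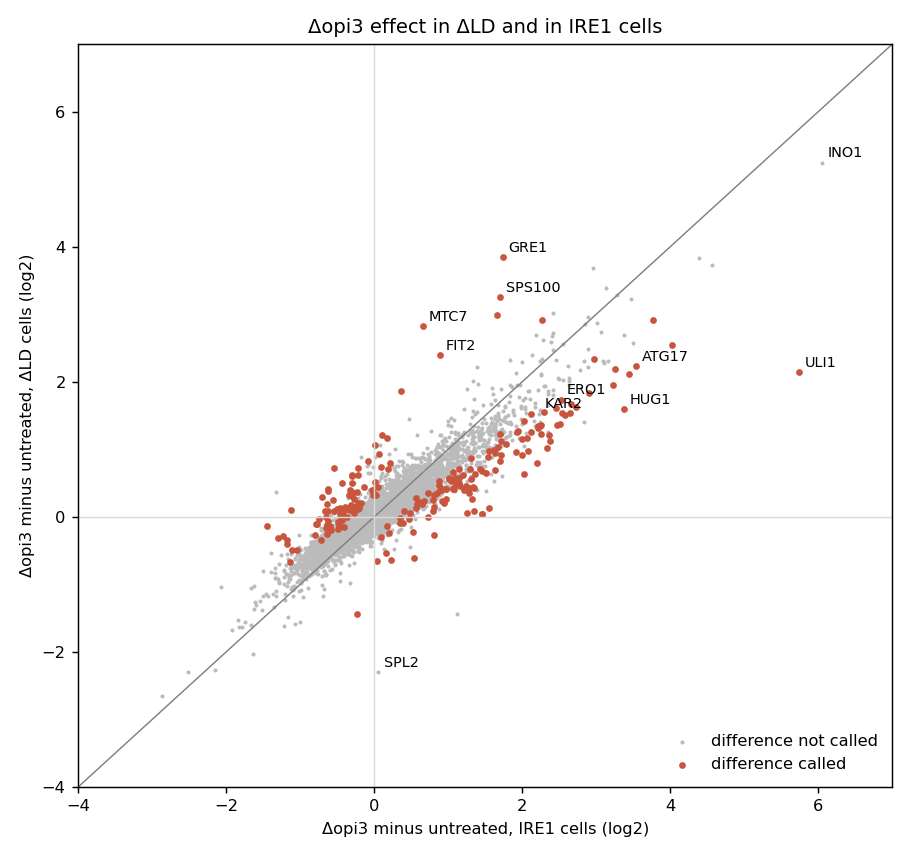
Log2 change with the Δopi3 label in ΔLD cells (vertical) against IRE1 cells (horizontal) for the 5923 genes above background on all 12 arrays, 1 point per gene. Coloured points are the 215 of them with a called difference, and on the diagonal the changes are equal. ULI1 lies farthest below the diagonal, with 2.14 and 5.74.

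The lipid and the folding stress of the same Ire1 form share the untreated arrays, so Δopi3 and DTT-treated ΔLD cells were compared directly. They differed in 3866 genes (62.3%), 1884 higher (30.3%) and 1982 lower (31.9%) in Δopi3 cells. Scaling weighs on this split: 48.7% of the calls were higher, but 341 of 2435 with E1A scaling, where the median of all genes moved by −0.37, from −0.01 to −0.39. ER folding genes were higher in Δopi3 cells in 8 of 16 cases and higher with DTT in 3 (2 and 3 with E1A scaling). ERO1 stood 0.69 above DTT (adjusted p 5.24e-05, and 0.299 with E1A scaling) and SIL1 1.24 above (adjusted p = 9.61e-09). KAR2 was 0.19 higher, not called (adjusted p = 0.283), and lower by 0.14 with quantile normalization and by 0.18 with E1A scaling. PDI1 was 0.29 higher (adjusted p 0.0252). It was lower by 0.09 with E1A scaling, and it lost its call with quantile normalization (0.872) and without DTT replicate 1 or 2, Δopi3 replicate 1 or 2, slide 1 or slide 2 (0.0527 to 0.13).

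The genes ranked here were called, above background on all 6 arrays compared and without overlap of the 2 groups. INO1 led those higher in Δopi3 cells, followed by SHH3 (3.61), GAC1 (3.44), PHO5 (3.33), PIR3 (3.24) and MCH5, a riboflavin transporter (2.82). Higher with DTT were NFG1, with 5.35 above untreated cells against 0.73 in Δopi3 cells (difference −4.62), RTC3 (−3.63), NCA3 (−3.49), FRE1 (−3.26), ARO10 (−2.78) and GPX2 (−2.62). The proteasome separated the stresses as a list. All 33 members were higher with DTT than in untreated cells, as were 38.1% of all genes (28.3% were lower), and 32 were higher with DTT than in Δopi3 cells, against 31.9% of all genes. Cytosolic chaperones were higher with DTT in 11 of 14 cases and N-glycosylation genes in 21 of 27. Respiratory genes were higher in Δopi3 cells in 38 of 45 cases, ribosome biogenesis factors in 38 of 44 and ribosomal proteins in 105 of 131, against 30.3% of all genes. With E1A scaling the 38 respiratory genes lost their calls, 4 biogenesis factors and 3 ribosomal proteins kept theirs, and the medians went from 0.53, 0.60 and 0.41 to 0.15, 0.23 and 0.03. The lists that were higher with DTT then had 32 proteasome genes, 11 chaperones and 19 N-glycosylation genes called. For the inositol list 6 of 10 were higher in Δopi3 cells and 2 lower (4 and 1 with E1A scaling). INO2 and OPI1 were among the 6, by 1.14 and 0.88, having fallen with DTT by 1.21 and 0.88.

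With choline, few genes separated the arrays labelled Δopi3 and ire1ΔLD from untreated ΔLD cells. The test called 32 genes (0.515%), 2 higher (0.0322%) and 30 lower (0.483%), 5 of them at least 2-fold lower (0.0805%). Each list had at most 4 calls, all lower. The inositol list held 4 of them: ITR1 (−0.71, adjusted p = 0.000299), INO4 (−0.43, 0.0127), INO2 (−0.56, 0.00692) and OPI1 (−0.55, 0.000293). The general stress list, at a median of 1.12 without choline, was at 0.01 with it, and the ER folding list, at 0.89, was at 0.07. The a-specific genes, at −0.84, were at 0.02. These choline arrays were the group of the 4 labelled Δopi3 on which OPI3 was at background throughout.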

How the data were processed

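Gene expression was measured on 24 one-colour (Cy3) arrays from 100 ng of total RNA each, per the labels' protocols. Per the file headers, the deposited spot intensity values were made by the authors with Agilent Feature Extraction 10.7.1.1, which subtracts background and a spatial trend within the array and scales nothing between arrays. The authors also deposited log2 ratios of group averages for some genes, used only as an alternative. Of 61657 non-control spots per array, those marked as outliers were left out. Log2 was taken of each processed signal divided by its array's 75th percentile, and the values were averaged by probe (6616) and then by systematic name (6576, of which 39 had several probes, none of them a gene of the naming rule). Genes entered the tests if over 50% of their spots passed the well-above-background mark on every array of 1 group or more. This left 6209 genes, 5752 of them in the reference gene table. Of the called genes, 81 had no untreated array and 18 no Δopi3 array above background. No gene was saturated on the 6 arrays.

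One limma 3.58.1 model (statmod 1.5.0, R 4.3.3, and version 1.17.8 of the data.table package) with 8 group means and no block was fitted to the 24 arrays together (16 residual degrees of freedom), with two-sided moderated tests. The number of arrays limits the precision: the median SE was 0.098 for a change and 0.139 for a difference of changes, and an exact permutation of 3 against 3 arrays cannot go below 0.1. The scripts were checked on simulated data. Per the file headers, arrays with the same replicate number share a slide. Deviations of same-numbered untreated and Δopi3 arrays from their group means correlated at 0.345, 0.506 and −0.064 across genes (differently numbered arrays from −0.525 to 0.224), and a fit with slide as a block was an alternative.

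Members and lists were chosen with earlier results of these data known. The naming rule took 7 core genes and the 15 largest rises and falls of the Δopi3 effect. The latter were called genes of the reference gene table, above background on all 6 arrays, whose 2 groups did not overlap. From the other 2 tests it took the 6 largest each way among called genes above background on all arrays compared. These had the same sign on all 3 slides for the difference, and no overlap of the groups against DTT. It also took the 3 largest called changes of each list except the mating-type and auxotrophic marker lists. All inositol, phosphatidylethanolamine-route and Kennedy genes were taken too. Other list members were named after their values were seen. FRE5, DAN1 and MFALPHA2 were not kept. Promoter sequences were not analysed here, and no coordinates are given.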

Additional observations from a re-analysis of the deposited data

Results flagged for a closer look

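For 29 named genes the effect of the Δopi3 label differed between ΔLD and IRE1 cells by the interaction test, and each difference is given here on the log2 scale, with the effect in IRE1 cells subtracted from that in ΔLD cells. Among ER and secretory genes it was −1.11 for SIL1, −0.90 for DER1, −0.86 for PMT3, an O-mannosyltransferase, −0.79 for ERO1, −0.66 for HAC1, −0.65 for PDI1, −0.51 for SEC24 and −0.50 for SEC59, the dolichol kinase. All 8 were thus lower without the lumenal domain. SEC59 and SEC24 rose in both cell types, SEC59 by 0.41 against 0.91 and SEC24 by 0.53 against 1.03.

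The difference was 2.11 for GRE1, 1.66 for SIP18, 1.55 for SPS100 and 1.501 for FIT2, and −1.41 for FRE3. The lists behind some of these did not go one way. Of 24 general stress genes 2 were called higher and 1 lower, with a median difference of −0.22. Of 26 iron genes 3 were called higher and 1 lower, with a median of 0.09. Over all genes 1.79% were called higher and 2.32% lower. LSO1 had a fitted 1.47, which is no measured size, since it was not above background on any untreated array of either cell type and on 1 of 3 Δopi3 IRE1 arrays only. The remaining genes higher in ΔLD cells were MTC7 (2.16), RRT5 (1.49), CIS1 (1.32), IDH1 (0.87) and RNP1 (0.65). The remaining lower ones were ULI1 (−3.60), HUG1 (−1.78), DIA3 (−1.49), PHO89 (−1.42), YPL162C (−1.41), ATG17 (−1.31), MEP2 (−1.21), ADR1 (−1.10), LSC2 (−0.80) and ZAP1, the zinc activator (−0.55). MEP2 fell by 1.45 in ΔLD cells and changed by −0.23 in IRE1 cells. ATG17 rose by 2.23 against 3.54. Without slide 2, where 8 differences were called over all genes, 3 of the 29 (ULI1, FIT2 and RRT5) kept their calls, while each value was 0.807 to 1.15 times the one given here.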

How the results depend on the processing

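The counts of calls were 3507 for the Δopi3 effect in ΔLD cells, 255 for its difference from IRE1 cells and 3866 for Δopi3 against DTT. Scaling to the E1A spike-in probes gave 1002, 62 and 2435, with 14 differences 2-fold higher, and 150 and 602 genes 2-fold higher and lower than with DTT. The slide block, which pairs arrays of 1 slide, gave 458 differences and kept all 3507 and 255 calls of the first 2 comparisons and 3861 of the 3866. Fits of the compared groups alone gave 104 differences, 17 of them 2-fold higher. Background correction with normexp used the median spot signal, chosen after seeing the data; the planned version on mean signals was not run. It gave 17 and 25 differences 2-fold higher and lower, and genes above background on all 24 arrays gave 14 higher. The 2-fold falls, 55, were 93 with quantile normalization and 92 without the 5 labelled arrays with OPI3 above background. Leaving out 1 array or slide gave 1855 to 3445 calls, with 393 to 517 and 40 to 81 of 2-fold size. It gave 8 to 992 differences (3 to 42 and 5 to 88), and 2836 to 3638 calls against DTT (280 to 359 and 148 to 194). In each of these the lowest total came without slide 2; the cause was not tested.

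Of 146 named genes, the Δopi3 effect lost its call for 38 with E1A scaling and 22 without slide 2; of 33 differences, 15 and 26 did, and 16 in fits of the compared groups alone. The 34 named genes in the authors' deposited table lay within the spread of the values here. Those ratios come from the same arrays, so the match checks only the processing. Of the called genes, 104 turned sign in the Δopi3 effect with quantile normalization (6 of them called the other way), and against DTT 511 with E1A scaling, 12 with quantile normalization, 11 with normexp and 2 without the 5 arrays, from sizes of at most 0.947. Signs of named genes turned as follows. With quantile normalization the values were −0.216 (PHO89), −0.304 (YPL162C), −0.206 (FRE3), −0.089 (NCA3), 0.075 (OPI1) and −0.007 (EPT1), and KAR2 against DTT was −0.137. With E1A scaling they were −0.004 (EPT1) and, against DTT, −0.184 (KAR2) and −0.085 (PDI1). With the array median they were −0.009 (YPL162C), −0.011 (FRE3), −0.027 (CDS1) and −0.037 (EPT1), and with normexp 0.023 (EKI1). Without the 5 arrays they were −0.147 (YPL162C), 0.080 (OPI1), −0.259 (CDS1), 0.132 (EKI1) and −0.169 (EPT1). Leave-outs ranged from −0.137 to 0.288 (PHO89), −0.006 to 0.211 (NCA3), −0.069 to 0.061 (EKI1), −0.019 to 0.117 (FRE3), −0.044 to 0.025 (OPI1), −0.051 to 0.155 (YPL162C), −0.097 to 0.213 (CDS1), −0.063 to 0.150 (EPT1), −0.047 to 0.296 (HAC1), −0.122 to 0.015 (INO2) and −0.024 to 0.143 (CHO1). The difference for OPI3 was −0.074 with E1A scaling, −0.132 without the 5 arrays and −2.88 to 3.39 in leave-outs, since OPI3 varied within the labelled groups.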
